A study of Mus musculus with 4 samples.

Results

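Collagens are the proteins of extracellular fibres and sheets, and 42 genes whose symbol has the form Col, number, a, number were measured here, of 44 such genes in the reference table and of 18322 named genes with a usable probe. The remaining 2, Col6a3 and Col12a1, had no named probe. The members were taken by the form of the symbol alone, although the family was chosen with earlier results of these data known. Each gene is represented by the probe with the highest mean log2 signal over the 4 arrays. By structure, 11 were fibrillar chains, 8 were chains of basement membranes (the type IV chains with types XV and XVIII) and 23 were others. The samples were mVenus-positive cells sorted by flow cytometry from genital ridges of mouse embryos at embryonic day 11.5 and labelled as primordial germ cells. All embryos carried a Blimp1-mVenus transgene, and they were either wild-type or HP1 gamma -/-, a null genotype of Cbx3 made by a modified gene trap and bred from HP1γ+/- parents. HP1γ, the Cbx3 product, is a chromatin protein that binds methylated histone H3. Each of the 2 pools per genotype held RNA of 5 to 6 embryos, with 500 to 3500 sorted cells per embryo, and was run on 1 one-colour array.

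A collagen molecule is a triple helix of 3 chains, each built on repeats in which glycine recurs. Fibrillar collagens of types I, III and V form the cables of connective tissue and are products of mesenchymal and stromal cells. Type IV collagen forms the network of basement membranes, the sheets beneath epithelia and around blood vessels, and types XV and XVIII are associated with the same zone. Of the others, fibril-associated collagens decorate the fibres, type VI forms beaded filaments, type VIII forms networks in vessel walls and membranes, and some chains span the cell membrane. Germ cells of the genital ridge lie among somatic and vascular cells that make this matrix.

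Several facts of the arrays touch every value below. A level is the log2 signal minus that array's own 75th percentile, and the differences of a gene are taken over arrays on the same probe. Medians and summed signals over genes, and the choice of the brightest members, do put levels of different probes together. The 75th percentile lay between 125 and 291 intensity units, and the share of spots well above background ran from 53.3% to 63.3%, with null replicate 2 at the top. Precision is limited by the few arrays, and no p-value here rests on more than 2 pools per genotype. As the check of the labels, Cbx3 went from 4.93 ± 0.19 to -1.77 ± 0.26 in the null pools (SD, n = 2 pools each) by probe A_51_P160328 (limma adjusted p = 0.044). Its brighter probe A_51_P117162 gave 5.80 ± 0.12 and -2.01 ± 1.09 and missed the threshold (limma adjusted p = 0.099). Of 10 germ cell marker genes with a named probe, null replicate 2 had 7 that did not rise well above background, so most defining markers of the labelled cell type were not detected in that pool. In these bulk samples, fewer cells of a type and less RNA per cell cannot be told apart.

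Collagen genes were detected on every array, and most widely in null replicate 2. Well above background were 27 and 28 of the 42 members on the wild-type arrays, 27 on the array of null replicate 1 and 34 on that of null replicate 2. Of the 42, 26 were well above background on all 4 arrays and 7 on none, namely Col4a3, Col6a5, Col6a6, Col9a3, Col17a1, Col19a1 and Col28a1. Another 6 were well above background in null replicate 2 only. On that array 63.3% of all spots were well above background, against 53.3% to 56.7% on the others. Its lowest level well above background, -4.84, was also below those of the other arrays (-3.56 to -4.11). The share of all probes detected on that array alone was not taken. The test took in a probe only where both arrays of a genotype measured it well above background, which left 28 members: 9 fibrillar, 7 of basement membranes and 12 others. Of these 28, Col22a1 entered through the null arrays alone and Col5a3 through the wild-type arrays alone.

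**Figure D1:**
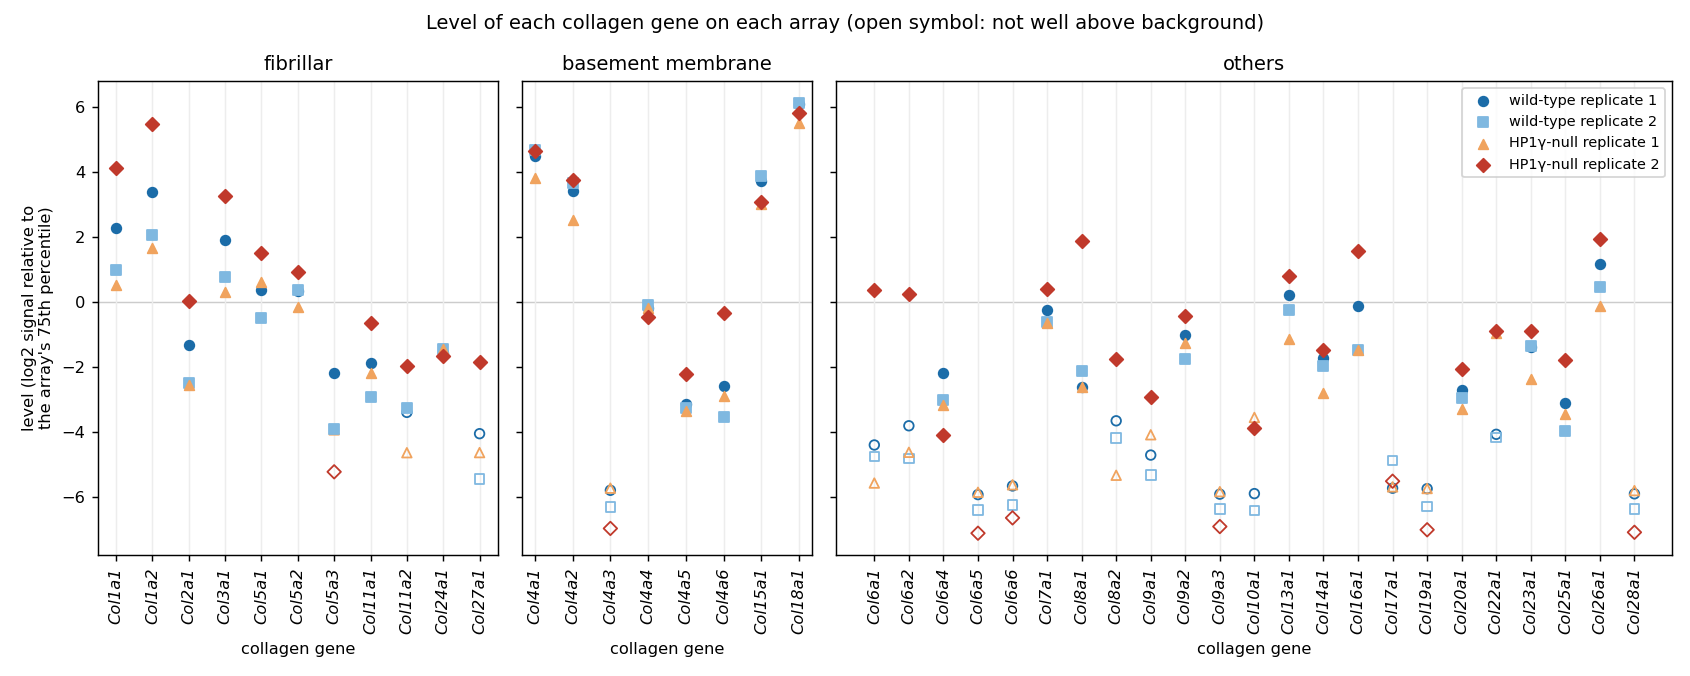
Level of each of the 42 collagen genes (horizontal axis, by class) on each of the 4 arrays, as log2 signal relative to the array's 75th percentile (vertical axis); each symbol is 1 array, open where the probe was not well above background. Null replicate 2 stood highest for Col1a1, Col1a2, Col3a1, Col8a1, Col6a1 and Col6a2, whereas Col22a1 was high on both null arrays and Col15a1 was lower on both.

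The clearest pattern among the collagens was a difference between the 2 null pools. Of the 28 members tested, 18 were at least 2-fold higher in null replicate 2 than in null replicate 1 and 1 (Col5a3) was at least 2-fold lower. Over all 22440 probes tested, 6.66% were at least 2-fold higher and 7.65% at least 2-fold lower by the same comparison. Col5a3 was not well above background on either null array (-3.94 and -5.23), so its difference between them was not measured. The median difference, null replicate 2 minus replicate 1, was 1.21 on the log2 scale for the collagens and -0.07 for all probes. By class it was 1.56 for fibrillar, 0.84 for basement membrane and 1.41 for the other chains. It was 1.13 for the 5 type IV chains taken alone. These are single arrays set against each other, so no test applies. Normexp background correction, which draws dim signals together, lowered the count from 18 to 10. Between the wild-type pools, 7 members were at least 2-fold lower in replicate 2 than in replicate 1 and none was at least 2-fold higher, against 2.10% and 0.851% of all probes. The order from high to low of null replicate 2, wild-type replicate 1, wild-type replicate 2, null replicate 1 was met by 11 of the 28 members, 4 of them fibrillar, 1 of basement membranes and 6 others. All probes met it in 6.30% of cases. Null replicate 2 was the highest array for 21 members (26.4% of all probes), null replicate 1 the lowest for 17 (30.3%), and both held for 14 (13.5%).

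**Figure D2:**
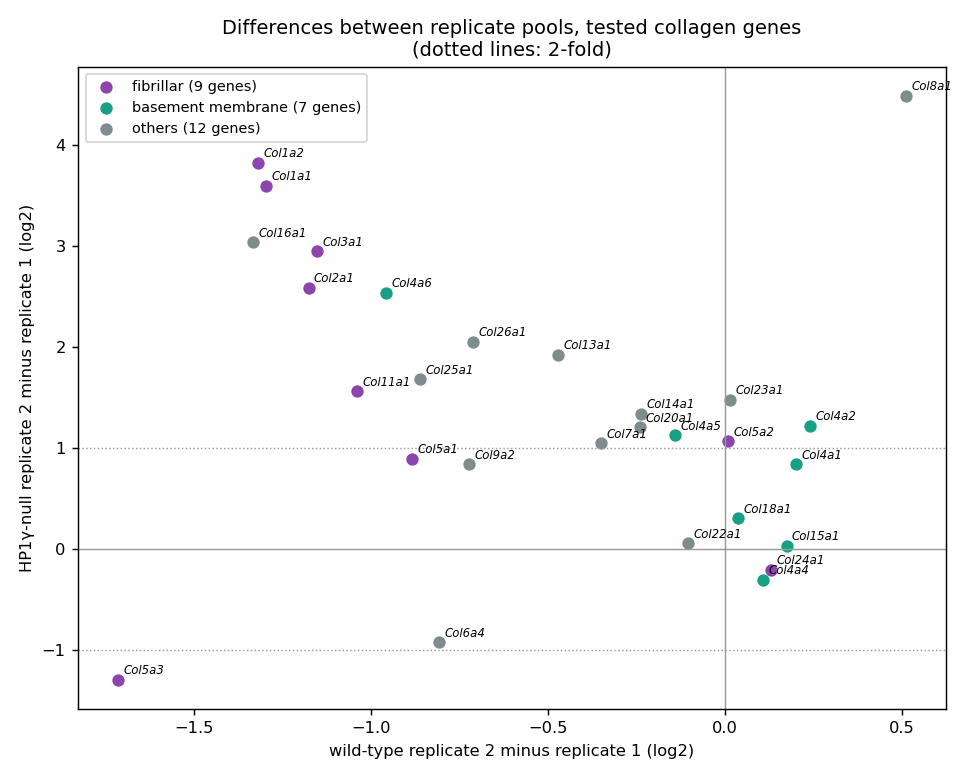
Differences between replicate pools for the 28 tested collagen genes on the log2 scale, wild-type replicate 2 minus replicate 1 (horizontal) and null replicate 2 minus replicate 1 (vertical); each point is 1 gene, coloured by class. The type I and III chains lie at the upper left, while Col15a1, Col18a1, Col4a4, Col24a1 and Col22a1 lie near 0 on both axes.

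The promoters of 4 genes that stood highest in null replicate 2 (Col1a2, Col3a1, Col6a1 and Col8a1) and of Col18a1, which did not, are shown to let their sequences be compared. Each is the 250 bases before the annotated start, from RefSeq for build GRCm38.p6, written 5′ to 3′ on the strand of the gene. They lie at chr6:4505368-4505617 (plus strand), chr1:45311288-45311537 (plus), chr10:76726045-76726294 (minus), chr16:57754738-57754987 (minus) and chr10:77166531-77166780 (minus), outside every annotated gene of that table. Capitals mark CCAAT boxes (CCAAT or ATTGG), GC boxes (GGGCGG or CCGCCC) and TATAAA or TTTATA, searched on both strands.
Col1a2: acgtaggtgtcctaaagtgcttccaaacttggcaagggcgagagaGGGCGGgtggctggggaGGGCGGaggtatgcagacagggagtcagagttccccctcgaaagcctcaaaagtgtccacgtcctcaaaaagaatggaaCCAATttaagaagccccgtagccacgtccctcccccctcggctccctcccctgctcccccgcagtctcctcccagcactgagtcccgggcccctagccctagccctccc
Col3a1: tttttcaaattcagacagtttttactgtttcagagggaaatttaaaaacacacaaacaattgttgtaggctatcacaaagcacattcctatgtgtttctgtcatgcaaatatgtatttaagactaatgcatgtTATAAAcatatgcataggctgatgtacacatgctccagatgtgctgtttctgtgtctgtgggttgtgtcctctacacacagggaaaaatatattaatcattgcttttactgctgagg
Col6a1: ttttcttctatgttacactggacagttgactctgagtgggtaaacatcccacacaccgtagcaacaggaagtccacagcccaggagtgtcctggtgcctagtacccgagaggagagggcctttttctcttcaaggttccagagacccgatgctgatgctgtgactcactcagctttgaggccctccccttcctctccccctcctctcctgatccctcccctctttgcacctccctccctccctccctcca
Col8a1: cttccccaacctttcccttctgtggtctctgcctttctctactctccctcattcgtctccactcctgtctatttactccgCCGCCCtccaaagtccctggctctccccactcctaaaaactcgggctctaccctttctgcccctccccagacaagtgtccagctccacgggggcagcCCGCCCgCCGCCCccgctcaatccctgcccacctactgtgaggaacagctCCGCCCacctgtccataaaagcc
Col18a1: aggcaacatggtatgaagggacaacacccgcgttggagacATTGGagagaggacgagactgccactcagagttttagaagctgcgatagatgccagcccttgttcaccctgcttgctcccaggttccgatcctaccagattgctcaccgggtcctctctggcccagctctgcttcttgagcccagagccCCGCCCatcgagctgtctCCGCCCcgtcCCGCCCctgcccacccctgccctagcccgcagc
Col1a2 held 1 CCAAT box and 2 GC boxes, Col3a1 held 1 TATAAA, Col6a1 held none of the 3 motifs, Col8a1 held 4 GC boxes, and Col18a1 held 1 CCAAT box and 3 GC boxes. A CCAAT box stood in 33.8% of all 32851 promoter windows of this length, a GC box in 32.7% and TATAAA in 12.4%. Promoters were listed for 35 of the 44 collagen genes, in 38 windows, of which 34.2%, 57.9% and 13.2% held the same motifs. None of the 3 motifs was thus present in all 4 promoters shown for null replicate 2. These 4 were picked from a larger number of genes highest there. These matches describe letters in a window and not bound sites.

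Among the fibrillar chains, the type I pair had the same order of arrays. Col1a1 and Col1a2 encode the chains of type I collagen, the main fibre of connective tissue. Col1a1 read 2.28 and 0.98 on the wild-type arrays (replicates 1 and 2) and 0.53 and 4.13 on the null arrays. Col1a2 read 3.39, 2.08, 1.65 and 5.47 in the same order. Both were thus highest in null replicate 2 and lowest in null replicate 1, so that the wild-type arrays lay between the null arrays. The null pools differed 12.1-fold for Col1a1 and 14.2-fold for Col1a2, and the wild-type pools 2.46-fold and 2.49-fold. The further probes of Col1a1 differed by 2.06 and 3.32 on the log2 scale between the null pools, in the same direction as the main probe. Col3a1, whose product forms fibres together with type I collagen, read 1.92, 0.77, 0.31 and 3.26, which is the same order of arrays. Fitted differences between genotypes were 0.70 with SE 1.30 for Col1a1, 0.82 with SE 1.37 for Col1a2 and 0.44 with SE 1.08 for Col3a1, none past the threshold (limma adjusted p = 0.96, 0.95 and 0.97). Without null replicate 2 all 3 had the opposite sign, at -1.10, -1.09 and -1.03. Col3a1 also turned without wild-type replicate 2 (-0.14) and under scaling to spiked-in control RNA (-0.10).

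Type V collagen is incorporated into type I fibres and regulates their diameter, and its 3 chains did not share an order of arrays. Col5a1 read 0.38 and -0.50 in wild type and 0.61 and 1.51 in the null pools. The arrays did not overlap between genotypes, with a fitted difference of 1.12 and SE 0.46 (limma adjusted p = 0.69), while its further probe differed by 0.41 with overlap. Col5a2 read 0.35, 0.35, -0.15 and 0.92, so the null arrays lay on either side of the wild-type ones. Col5a3, which entered the test through wild type alone, read -2.19 and -3.91 there and was not well above background in either null pool, where its signals were -3.94 and -5.23. By means, the null pools were lower by at least 2.22-fold (limma adjusted p = 0.75), although wild-type replicate 2 and null replicate 1 lay close together, and without wild-type replicate 1 its difference was less than 2-fold.

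Of the other fibrillar chains, Col2a1, Col11a1, Col11a2 and Col27a1 were highest in null replicate 2, and Col24a1 was lowest there. Col2a1, the chain of type II collagen of cartilage, read -1.31, -2.49, -2.56 and 0.02. However, its further probe read -2.10, -2.65, -1.86 and -1.52, so the null pools were nearly level on that probe. Col11a1, which forms heterotypic fibres with type II collagen, read -1.88, -2.92, -2.20 and -0.63. Col11a2 was well above background in wild-type replicate 2 at -3.27 and in null replicate 2 at -1.97, and in the latter it was at least 3.01-fold above null replicate 1. Col27a1 was measured in null replicate 2 only, at -1.84, at least 3.28-fold above null replicate 1. Col24a1 stayed within -1.66 and -1.44 on all arrays. Of 10 chondrogenic marker genes, 6 were tested, with summed signals of 12.6 and 11.9 times the 75th percentile in wild type and 11.2 and 7.02 in the null pools. These sums are mostly the signal of Hapln1, which read 3.50, 3.41, 3.22 and 2.49. Of the 6 genes, 5 had a higher and 1 a lower mean in the null pools, with a median difference of 0.12. The cartilage markers Matn1, Matn3, Matn4 and Cnmd rose well above background on none of the arrays. The part of such cells in these values was not tested.

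Basement membrane collagens are given as type IV chains and multiplexins in turn. The chains Col4a1 and Col4a2 assemble into the type IV network found in nearly all basement membranes. Col4a1 read 4.49 and 4.69 in wild type and 3.81 and 4.65 in the null pools, and Col4a2 read 3.43, 3.67, 2.52 and 3.74. For both of these main probes, null replicate 1 was the lowest array and null replicate 2 lay at the wild-type level, so the genotypes overlapped. Their fitted differences were -0.36 with SE 0.35 and -0.42 with SE 0.46 (limma adjusted p = 0.88 and 0.90). Without null replicate 1 these turned to 0.06 and 0.19. The further probes differed by -0.29 for Col4a1 and -0.70 for Col4a2. That of Col4a2 read 1.06 and 1.37 in wild type and 0.21 and 0.83 in the null pools, so on it the genotypes did not overlap. The genes lie head to head on chromosome 8, with annotated starts 21 bases apart on opposite strands (RefSeq, build GRCm38.p6).

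The multiplexins Col15a1 and Col18a1, collagens whose helices are interrupted, were lower on both null arrays than on both wild-type arrays. Col15a1 read 3.71 and 3.89 in wild type and 3.03 and 3.06 in the null pools, so each genotype was tight. The fitted difference was -0.75 with SE 0.20, which did not pass (limma adjusted p = 0.53, unadjusted p = 0.016). Col18a1, the precursor of endostatin, read 6.10 and 6.14 against 5.52 and 5.83, a difference of -0.45 with SE 0.22 (adjusted p = 0.75). Their further probes went the same way, by -0.45 and -0.41. Endothelial markers lay in the same direction, and 13 of the 14 tested were lower on both null arrays (23.0% of all probes), with summed signals of 388 and 430 times the 75th percentile in wild type and 223 and 288 in the null pools. All 14 were well above background on all 4 arrays. Their part in the collagen values was not tested.

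The remaining type IV chains behaved differently from each other. Col4a4, a chain of the specialised basement membranes of kidney and inner ear, stayed between -0.48 and -0.09 on the 4 arrays, whereas its partner Col4a3 was detected on none. Col4a5 read -3.14, -3.28, -3.36 and -2.23. Col4a6 read -2.57, -3.53, -2.89 and -0.35, and was 5.81-fold higher in null replicate 2 than in null replicate 1. A further probe of Col4a6 read -2.37, -2.35, -2.10 and -2.60, which does not show that rise. These 2 genes are also neighbours on opposite strands, on chromosome X, with starts 1343 bases apart.

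Chains of types VI and VIII were among those with the widest gap between the null pools. Col6a1 and Col6a2 encode chains of the beaded filaments that surround mesenchymal cells. In null replicate 2 they read 0.36 and 0.25, while on the other 3 arrays both were not well above background. Col6a1 was therefore at least 15.1-fold and Col6a2 at least 14.0-fold higher in null replicate 2 than in null replicate 1, and at least 19.1-fold and 17.7-fold higher than in wild type. Col6a4 went the opposite way, at -2.20 and -3.01 in wild type and -3.17 and -4.09 in the null pools, with no overlap (difference -1.03, SE 0.45, limma adjusted p = 0.72). Col8a1, a network-forming chain of vessel walls and membranes, read -2.63, -2.12, -2.63 and 1.86, so 3 arrays lay within 0.51 of each other and null replicate 2 was 22.4-fold above null replicate 1. Its fitted difference between genotypes was 1.99 with SE 1.53 (limma adjusted p = 0.85), and -0.25 without null replicate 2. Its partner Col8a2 was measured in null replicate 2 only, at -1.75, at least 3.50-fold above null replicate 1. Col10a1, the chain of hypertrophic cartilage, was likewise measured only there, at -3.89, close to the limit of detection, beside -3.55 in null replicate 1, where that signal was not well above background.

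The order of arrays seen for type I collagen was met by 3 of 5 fibril-associated chains tested (Col14a1, Col16a1 and Col20a1) and by 1 of 3 membrane-spanning chains (Col13a1). Col16a1 read -0.13, -1.47, -1.47 and 1.57, an 8.21-fold gap between the null pools. Col14a1 read -1.72, -1.96, -2.82 and -1.48. Both chains bind to the surface of fibres. Of the type IX chains, which coat cartilage fibres, Col9a2 read -1.02, -1.75, -1.26 and -0.42, Col9a1 was measured in null replicate 2 only and Col9a3 on no array. The transmembrane collagen Col13a1 read 0.22, -0.25, -1.13 and 0.80, and the other 2 membrane-spanning chains tested, Col23a1 and Col25a1, were 2.79-fold and 3.21-fold higher in null replicate 2 than in null replicate 1. A further probe of Col23a1 was 2.13-fold higher there. Another does not show that rise, with -3.68 in null replicate 1, not well above background, and -3.72 in null replicate 2. Col26a1 read 1.17, 0.46, -0.12 and 1.94, and Col7a1, which forms the anchoring fibrils of skin, read -0.26, -0.61, -0.66 and 0.39. By the main probe of each of the tested genes just given, null replicate 2 was the highest array.

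Col22a1 differed from this pattern, being high in both null pools alike. Type XXII collagen is a fibril-associated chain known from tissue junctions such as those of muscle and tendon. Its signal was -4.07 and -4.18 on the wild-type arrays, where it was not well above background, and -0.94 and -0.88 on the null arrays. It was thus at least 7.92-fold higher in the null pools, which differed from each other only 1.04-fold. The fitted difference of 3.21 with SE 0.19 missed the threshold (limma adjusted p = 0.099). At an adjusted p under 0.10 it was the 1 member called, against 0.0758% of all probes. It entered the test through the null arrays alone, where it was high, so the filter favoured this call. Under the alternative settings the difference lay between 1.05 and 3.27 and the adjusted p between 0.0062 and 0.57. The threshold was passed under scaling to spiked-in control RNA alone, where the median over all probes was -0.61 in place of -0.06. Only 1 probe names this gene. Epithelial and mesothelial markers were higher in both null pools for 6 of the 8 tested (15.1% of all probes). Of these 6, Krt19, Msln and Lrrn4 entered the test through the null arrays alone, so the filter favoured their place in this count. Epcam and Cdh1, also tested, overlapped between genotypes. Summed signals of the 8 were 2.72 and 1.72 times the 75th percentile in wild type and 40.7 and 10.2 in the null pools. The part of epithelial and mesothelial cells in the Col22a1 signal was not tested.

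The question the design addresses is which transcripts differ in cells lacking HP1γ, and between genotypes no collagen gene passed the threshold. Limma called 0 of the 28 members, against 0.00891% of all probes tested. At an unadjusted p under 0.05 there were 2, Col22a1 and Col15a1, while all probes gave 7.51%. Col22a1 entered the test through the null arrays alone, where it was high, so the filter favoured its place in this and the following counts. The arrays did not overlap for 2 members that were higher (15.1% of all probes) and for 4 that were lower (23.0%), the latter being Col5a3, Col6a4, Col15a1 and Col18a1. The higher pair, Col22a1 and Col5a1, differed at least 2-fold (3.92% of all probes), as did 2 of the lower, Col5a3 and Col6a4 (1.07%). For Col5a3 the order of arrays was not measured, since the lowest signal well above background in null replicate 1 (-3.56) lies above its level in wild-type replicate 2, which leaves Col6a4, Col15a1 and Col18a1. The counts at least 2-fold higher and lower both moved when null replicate 2 or wild-type replicate 1 was left out. Leaving out null replicate 1 moved the higher one. With 1 array against 2, non-overlap is easier to meet, and no share of all probes was taken there. Such counts are therefore not given as a result about collagens. The mean was higher in the null pools for 17 members and lower for 11, with a median difference of 0.22, where that of all probes was -0.06. The split was 11 higher and 17 lower under spiked-in scaling, 7 and 21 without null replicate 2, and 22 and 6 without null replicate 1. By class the median was 0.63 for fibrillar chains, 7 of 9 being higher, -0.36 for basement membrane chains, 5 of 7 being lower, and 0.22 for the others, 8 of 12 being higher. Under spiked-in scaling, which shifted all probes to a median of -0.61, these medians were 0.09, -0.90 and -0.32, so that of the others changed sign. With null replicate 2 left out, the medians of fibrillar, basement membrane and other chains were -0.66, -0.60 and -0.51. With null replicate 1 left out they were 1.76, 0.06 and 0.89. The fibrillar median was 1.22 when wild-type replicate 1 was left out and 0.04 when replicate 2 was.

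**Figure D3:**
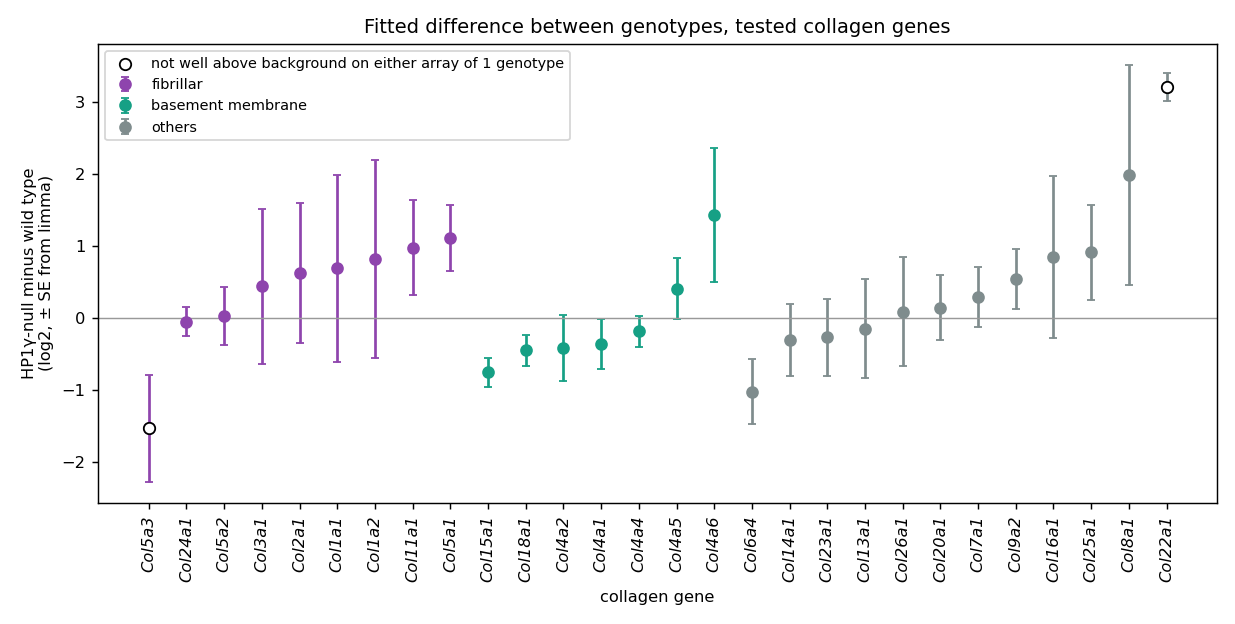
Fitted difference, HP1γ-null minus wild type, on the log2 scale (vertical axis) for the 28 tested collagen genes (horizontal axis, by class); points are limma estimates and bars ± SE, with open points where a genotype was not well above background on either array. Col22a1 has a difference of 3.21 with a short bar, while the bars of Col1a1 and Col1a2 cross 0.

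Genes that modify, process and bind collagen were measured on the same arrays, and limma called 0 of the 34 tested (0.00891% of all probes). At an unadjusted p under 0.05 there were 5 (7.51% of all probes). Among chaperones and chain-modifying enzymes, 16 of 20 listed genes were tested, 4 with a higher and 12 with a lower mean in the null pools, and a median difference of -0.10. Serpinh1, the collagen chaperone HSP47, read 6.31, 6.30, 5.90 and 6.35. Plod2, a lysyl hydroxylase of collagen, read -1.33 and -1.90 in wild type and -0.63 and -0.87 in the null pools, a difference of 0.87 with SE 0.28 (limma adjusted p = 0.62). Colgalt2, which adds galactose to hydroxylysine, differed by -0.70 (adjusted p = 0.63). Between the null pools these enzymes had a median difference of 0.50, where that of all probes was -0.07. At least 2-fold higher in null replicate 2 were 3 of them (6.66% of all probes), and at least 2-fold lower 0 (7.65%).

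Genes of propeptide processing and cross-linking had higher means in the null pools for 7 of 7 tested, with a median of 0.26, but for only 3 of 7 under spiked-in scaling (median -0.28) or without null replicate 2 (median -0.29). The count was 5 of 7 without null replicate 1 or without wild-type replicate 2. Loxl1, a lysyl oxidase that cross-links fibres, read -1.97, -3.82, -3.53 and 0.45, and differed by 1.36 with SE 1.49 (limma adjusted p = 0.90). Its signal in null replicate 1 was not well above background, so null replicate 2 was at least 15.8-fold higher. Loxl3 differed by 0.26 (adjusted p = 0.90). Between the null pools, Bmp1 (a procollagen proteinase), Pcolce (its enhancer), Loxl1 and Loxl2 were at least 2-fold higher in null replicate 2 (6.66% of all probes). Pcolce2 went the other way, from -0.79 in null replicate 1 to -4.77 in null replicate 2 (7.65% of all probes at least 2-fold lower). Of 6 collagen receptor genes tested, 4 had lower means in the null pools, all 4 without overlap (23.0% of all probes), and the median over the 6 was -0.76. The inhibitory leukocyte receptor gene Lair1 read 0.46 and 0.43 in wild type and -0.32 and -0.53 in the null pools, and the integrin gene Itga2 read -0.25, -0.18, -0.84 and -1.21. Their differences of -0.87 and -0.81 did not pass (limma adjusted p = 0.50 and 0.56). Of 5 collagen-degrading proteases tested, 2 had higher and 3 lower means, with a median of -0.14. Mmp13, an interstitial collagenase, differed by -0.66 and Mmp8 by 0.54 (adjusted p = 0.61 and 0.78).

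**Figure D4:**
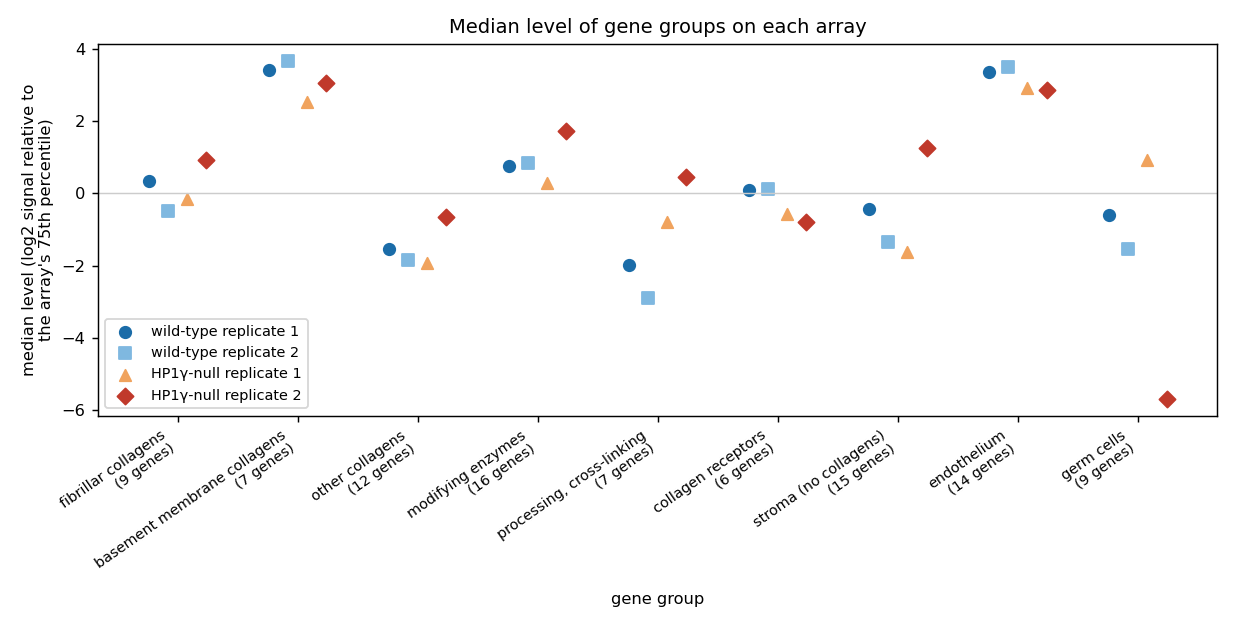
Median level of gene groups (horizontal axis, with the number of genes tested) on each of the 4 arrays, as log2 signal relative to the array's 75th percentile (vertical axis); each symbol is 1 array. Fibrillar collagens and stromal markers are highest in null replicate 2, endothelial markers are lower in both null pools, and germ cell markers are lowest in null replicate 2.

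Most stromal markers other than collagens differed between the null pools in the same direction as the type I and III chains. Of 17 listed, 15 were tested, and 9 of them were at least 2-fold higher in null replicate 2 than in null replicate 1 (6.66% of all probes). At least 2-fold lower there was 1 (7.65% of all probes), Postn, which encodes the matrix protein periostin and was 14.9-fold higher in null replicate 1. Their median levels on the 4 arrays, wild type first, were -0.42, -1.35, -1.62 and 1.25, and their summed signals 68.0, 64.7, 48.3 and 76.9 times the 75th percentile. These sums are mostly the signals of Sparc and Nid1, which were lower on both null arrays than in wild type. The stromal marker Dpt was detected on none of the arrays, and Tcf21 only in wild-type replicate 1 and null replicate 2. The median of the 9 fibrillar chains was 0.35, -0.50, -0.15 and 0.92, and that of the 9 germ cell genes tested -0.59, -1.55, 0.92 and -5.69. The germ cell genes had summed signals of 48.5, 15.3, 199.9 and 1.27. Dppa5a, at 5.37, 3.66, 7.45 and -0.84, made up most of these sums except in null replicate 2. The pool with the highest fibrillar collagens was thus the pool with the lowest germ cell markers, and the part of either cell type in the collagen values was not tested.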

How the data were processed

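Per the file headers, the deposited intensity values came from Agilent Feature Extraction 10.7.3.1, a scanner program that subtracts background and spatial trends on each array. No scaling between arrays was found in them. Per the labels, Cy3 was used on 4 ng of RNA from every pool. The authors' deposited value table holds the same intensity values rounded (difference at most 0.50%), so its linear scale and direction are known and it is not centred, with column medians of 20.6, 22.6, 14.5 and 33.4. The alternatives tried are in the closing section.

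Computed here were log2 values minus the 75th percentile of each array over 43379 spots, controls left out. Spots of the same probe were averaged, without those bearing outlier marks, which removed 21 of 41174 probes. The filter on dim probes left 22440 for testing. R 4.3.3 with limma 3.58.1 gave two-sided tests from lmFit and eBayes, adjusted by Benjamini-Hochberg across all 22440 (threshold 0.05). Files were read in Python 3.11.15. The fit had 2 residual degrees of freedom and a prior of 2.43, and was tested on simulated data. A fold given as "at least" is a bound: the dim side is taken, per array, as the higher of the probe's signal and the lowest signal well above background. Names came from RefSeq accessions of GRCm38.p6, which named 26888 probes (18327 genes, 18322 after the outlier step).

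All arrays lay on 1 slide, and each replicate is its own pool of embryos, per the labels. The members, gene lists and marker lists were chosen with earlier results of these data known. Values are given for the 3 brightest members of each class, the 6 with the smallest unadjusted p, the 4 with the largest difference between null replicates in each direction, and partner chains, and for the 2 genes with the smallest unadjusted p of each processing list. Other genes named were chosen after their values were seen. No sequence of a protein was used here. Markers of leukocytes (9 tested, median difference -0.18) and of gonadal soma (4 tested, median 1.94) were also listed.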

Additional observations from a re-analysis of the deposited data

How the results depend on the processing

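Alternatives were quantile normalization, scaling to 7 spiked-in control probes or to the median of the probes detected on every array, normexp on the median spot signal (the mean spot signal was not used here), the deposited value table, no filter on dim probes, the mean over a gene's tested probes, and each array left out. The count of collagen genes called was 0 under all of them but spiked-in scaling, which called 1 (Col22a1, 2.67, limma adjusted p = 0.0062, where it lay between 0.060 and 0.57 under the others). Genes at least 2-fold higher without overlap numbered 1 under spiked-in scaling, 4 with no filter, 1 with the mean over tested probes, and 1 to 12 with 1 array left out. Genes at least 2-fold lower numbered 0 under normexp and 0 to 6 with 1 array left out. With 1 array left out, the median difference ranged from -0.58 to 0.89 for all members, from -0.66 to 1.76 for fibrillar, from -0.60 to 0.064 for basement membrane and from -0.51 to 0.89 for other chains, the lone array being assumed to vary like the rest. For basement membrane chains it was -0.90 under spiked-in scaling, where the median of all probes was -0.61. The median difference of null replicate 2 minus replicate 1 was 0.93, 0.59 and 0.51 under normexp for fibrillar, basement membrane and other chains, and 2.59, 0.57 and 1.16 with no filter. Under spiked-in scaling it was 1.37 for basement membrane and 1.94 for other chains. With the main scaling and type IV chains alone as basement membrane, it was 1.13. Genes at least 2-fold higher in null replicate 2 numbered 10 under normexp, and those lower 0 under spiked-in scaling and 7 with no filter, which admits probes at background. Single results were run for the 28 tested collagen genes and for 14 genes of the processing, receptor and protease lists. Of these, the sign turned under spiked-in scaling for Col3a1 (-0.10), Col5a2 (-0.51), Col4a5 (-0.13), Col7a1 (-0.25), Col20a1 (-0.40), Col26a1 (-0.45), Adamts14 (-0.40), Bmp1 (-0.52), Loxl2 (-0.28), Loxl3 (-0.28) and Mmp8 (-0.0065). It turned under normexp for Col13a1 (0.035) and Col14a1 (0.0066), and with the mean over tested probes for Loxl2 (-0.12). Leaving out 1 array turned Col1a1 (-1.10 to 2.49), Col1a2 (-1.09 to 2.74), Col2a1 (-0.66 to 1.93), Col3a1 (-1.03 to 1.92), Col5a2 (-0.50 to 0.57), Col24a1 (-0.15 to 0.054), Col4a1 (-0.78 to 0.064), Col4a2 (-1.03 to 0.19), Col4a5 (-0.15 to 0.98), Col7a1 (-0.23 to 0.82), Col8a1 (-0.25 to 4.24), Col13a1 (-1.11 to 0.82), Col14a1 (-0.97 to 0.37), Col16a1 (-0.67 to 2.37), Col20a1 (-0.46 to 0.75), Col23a1 (-1.01 to 0.47), Col26a1 (-0.94 to 1.12), Adamts14 (-0.31 to 0.60), Bmp1 (-0.64 to 0.70), Loxl1 (-0.63 to 3.34), Loxl2 (-0.69 to 1.21), Pcolce (-0.29 to 1.42), Pcolce2 (-1.38 to 2.59) and Serpinh1 (-0.41 to 0.043). The cause of these moves was not tested, beyond what each setting removes. The replicate numbers do not mark a shared litter or batch in the labels, and same-numbered arrays deviated together only weakly (r = 0.07 across 22440 probes, which are not independent replicates). With the replicate block, limma called 13 probes in place of 2 and 0 collagen genes, the lowest adjusted p being 0.060 for Col22a1. Dim signals near the background limit the low-level members.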
